A study of Mus musculus with 72 samples.

Results

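The Ugt1a cluster holds 9 mouse genes that use the same 3' exons: Ugt1a1, Ugt1a2, Ugt1a5, Ugt1a6a, Ugt1a6b, Ugt1a7c, Ugt1a8, Ugt1a9 and Ugt1a10. These 9 of the 45321 genes in the count tables were chosen by their day 3 values, where the whole cluster differed between cells with and without Nup133. Their day 3 difference is therefore described here and not tested, and it supports nothing else. A UDP-glucuronosyltransferase joins glucuronic acid to a small molecule such as bilirubin, a steroid or a phenol, which makes it more soluble and ready for export. In the Ugt1a cluster each gene has a promoter and a first exon of its own, spliced to a common set of downstream exons. The first exon encodes the part of the enzyme that binds the substrate, and the common exons encode the part that binds the sugar donor UDP-glucuronic acid. Liver, intestine and kidney are the tissues best known for these enzymes.

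The samples were poly(A) RNA of cultured mouse embryonic stem cells, taken at day 0, day 2 and day 3 of a neural differentiation, in 3 control and 3 knockout samples at each day. Controls were 2 biological replicates of the line HM1 (Nup133+/+, 40 chromosomes, XY) and the blastocyst-derived line 1A4 (Nup133+/+, Sox1gfp/+, 40 chromosomes, XY). Knockout samples were line 14 (Nup133-/-, 40 chromosomes, XY) and line 19 (Nup133-/-, likely 40 chromosomes, XY), each a CRISPR/Cas9 derivative of HM1, and the blastocyst-derived line 319 (Nup133merm/merm, Sox1gfp/+, 42 chromosomes, XX, +8 +12). Day 0 cells came from serum and LIF on mouse embryonic fibroblast feeders, which were taken off by a plating step of 20 minutes. Day 2 cells had grown in N2B27 without LIF, and day 3 cells had then spent 24 h in 1 µM all-trans-retinoic acid (RA). Each line was sampled once per day apart from HM1, so genotype is compared over lines and each knockout line carries its own history. The Ugt1a cluster is on chromosome 1, not on the extra chromosomes 8 and 12 of line 319. P-values measure the spread within groups over these lines and the 2 biological replicates of HM1, pooled over all days after a term for the background. That term takes up part of the difference between the control lines HM1 and 1A4. Samples of a line at different days were treated as independent. Nup133, a scaffold subunit of the nuclear pore, was at 179 to 323 CPM (counts per 1e+06 of the library, scaled with TMM) in the 9 control samples and at 14.3 to 37.1 CPM in the 9 knockout samples.

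The lowest total of gene counts was 16.5 M (line 19 at day 2) and the highest 54.4 M (line 14 at day 3). The summed level of 5 pluripotency genes went from 3212 to 4501 CPM at day 0 to 251 to 536 CPM at day 3. Summed levels of 4 neural progenitor genes were 48.9 to 162 CPM at day 0 and 260 to 885 CPM at day 3. The lists of related genes and markers used below, like the cluster itself, were chosen with earlier results of these data known.

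The cluster lies on the plus strand of chromosome 1, at chr1:88055388-88220002 of GRCm38 (mm10). All 18 Ensembl transcripts that GENCODE M21 gives for the 9 genes were present in the count tables. Of these, 12 carry all 4 shared exons (exon 2 at chr1:88215044-88215175, exon 3 at chr1:88215795-88215882, exon 4 at chr1:88216138-88216357 and exon 5 from chr1:88218127), and 6 carry only some of them. The coding first exons lie from 158.7 kb (Ugt1a10) to 2.2 kb (Ugt1a1) before exon 2 and are 879 to 954 bases long. The joins below show why the 9 genes can be told apart only upstream of exon 2. Each line gives the last 30 bases of a coding first exon in lower case and the first 15 bases of exon 2 in capitals, 5′ to 3′, from the GENCODE transcripts. The capitals are the same for all 9 genes.

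Ugt1a10: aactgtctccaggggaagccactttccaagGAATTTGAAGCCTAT
Ugt1a9: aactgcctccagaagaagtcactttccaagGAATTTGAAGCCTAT
Ugt1a8: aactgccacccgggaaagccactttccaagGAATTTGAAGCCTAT
Ugt1a7c: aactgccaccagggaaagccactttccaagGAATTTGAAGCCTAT
Ugt1a6b: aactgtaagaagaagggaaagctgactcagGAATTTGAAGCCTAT
Ugt1a6a: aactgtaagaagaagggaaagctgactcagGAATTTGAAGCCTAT
Ugt1a5: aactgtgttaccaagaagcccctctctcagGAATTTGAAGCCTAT
Ugt1a2: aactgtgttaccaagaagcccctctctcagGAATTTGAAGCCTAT
Ugt1a1: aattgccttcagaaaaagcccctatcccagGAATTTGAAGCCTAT

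The last 30 bases were the same in Ugt1a6a and Ugt1a6b, and the same in Ugt1a5 and Ugt1a2. Over the whole coding first exon, Ugt1a6a and Ugt1a6b were 95.1% identical, the closest pair, and Ugt1a10 and Ugt1a9 followed at 87.8%. Of all stretches of 100 bases in the Ugt1a6a first exon, 27.6% occurred unchanged in Ugt1a6b. No such stretch of the Ugt1a7c first exon was found in another gene's annotated transcripts. Reads of Ugt1a6a and Ugt1a6b are therefore uncertain and less surely assigned than those of Ugt1a7c.

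**Figure D1:**
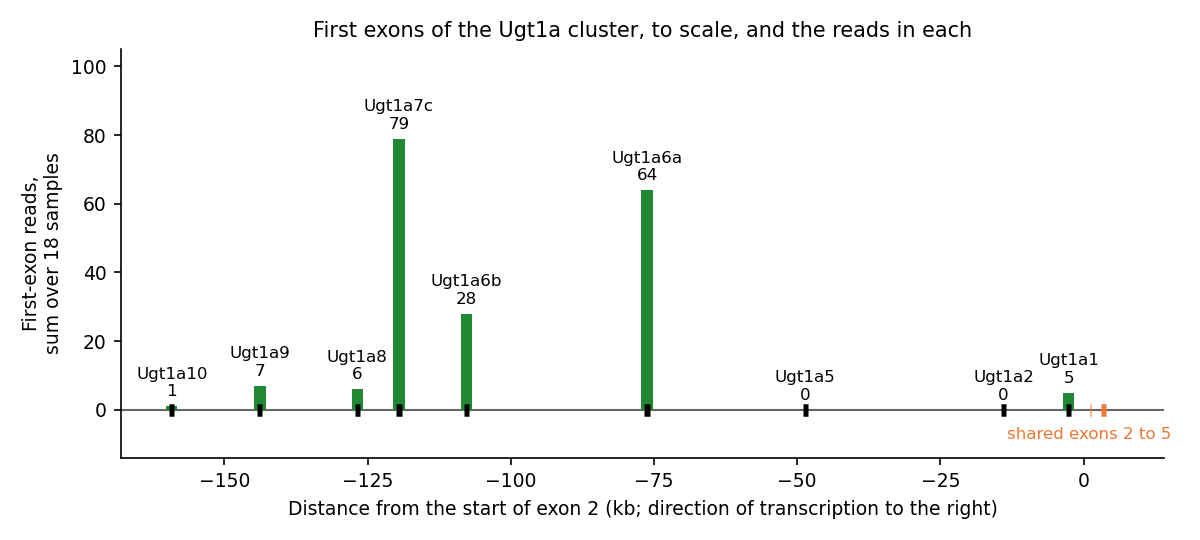
Position of the 9 coding first exons (black) and the shared exons (orange) by distance from exon 2 in kb, to scale, with green bars for the first-exon reads summed over 18 samples (bars are wider than the exons). Ugt1a7c (79 reads), Ugt1a6a (64) and Ugt1a6b (28) hold most of the reads, and Ugt1a2 and Ugt1a5, whose counts are the baseline, hold none.

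A read in a shared exon had been counted for every transcript that contains it. The lowest count among the 12 full-length transcripts of a sample was therefore taken as its shared-exon reads, and the surplus of a gene's own transcript over it as first-exon reads. How reads across a join or reads that align in several places were counted is not given in the sources used here. Over the 18 samples the cluster had 615 reads in this sense, 425 in the shared exons and 190 in first exons. First exons thus held 30.9% of the reads (exact 95% interval 27.3% to 34.7%, for counting error only). A first exon makes up 40.1% to 42.1% of the length of a full-length transcript that ends with the shortest exon 5.

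Because of the shared reads, the counts of the 9 genes are largely the same number. Ugt1a2 and Ugt1a5 had the same count as each other and as the shared level in 18 of 18 samples. Ugt1a10 equalled the shared level in 17 samples, Ugt1a9 in 16, Ugt1a1 in 14 and Ugt1a8 in 13. Shared reads made up 84.3% of the counts of Ugt1a7c, 86.9% of those of Ugt1a6a and 93.8% of those of Ugt1a6b. A difference seen in all 9 genes is thus a single measurement of the shared exons, and the first exons are the place to tell the genes apart.

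At day 0 the shared exons held 57, 44 and 34 reads in HM1 replicate 1, HM1 replicate 2 and line 1A4. The knockout lines 14, 19 and 319 held 38, 27 and 58 reads. Scaled for depth, the controls were at 1.48, 1.06 and 1.36 CPM and the knockout lines at 1.30, 0.627 and 1.18 CPM. The groups overlapped, with line 19 lowest of all 6 samples. The knockout differed from the control by a log2 fold change of -0.34 ± 0.34 (SE), with an adjusted p of 0.86 in edgeR's quasi-likelihood test. None of the 9 genes was called at day 0 (adjusted p below 0.05), where 0.854% of the 18273 genes tested were called and 1946 had an unadjusted p below 0.05. None of the 9 had groups that did not overlap, against 17.8% of all genes tested.

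By day 2 the cluster had fallen in the controls. The shared exons held 10, 6 and 6 reads in the controls and 27, 3 and 10 reads in lines 14, 19 and 319. In CPM this was 0.225, 0.139 and 0.121 in the controls and 0.513, 0.226 and 0.432 in the knockout lines. Every control sample was below every knockout sample, though line 19 (3 reads) and HM1 replicate 1 (10 reads) were nearly level after scaling. The fall from day 0 was 2.98 ± 0.39 on the log2 scale in the controls (adjusted p 4.3e-05), and the shared level fell by 1.30 ± 0.37 in the knockout (adjusted p 0.013). Each of the 9 genes was called lower at day 2 than at day 0 in both genotypes. Of the feeder fibroblast genes, Col1a1 (-0.996 ± 0.31, adjusted p 0.019) and Col1a2 (-1.18 ± 0.32, adjusted p 0.0095), which encode the chains of type I collagen, were also called lower in the controls. Others of that list did not fall there. Thy1 went from 2.91 to 4.51 CPM at day 0 to 30.2 to 32.8 CPM at day 2. Dcn went from 0.312 to 0.432 CPM to 0.786 to 0.953 CPM, and Acta2 changed by 0.17 ± 0.44 (adjusted p 0.80). The part of these genes in the result was not tested. Changes between these days were common: 35.2% of all genes tested were called in the controls and 35.9% in the knockout.

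In the knockout the fall rests on few samples. The adjusted p was 0.059 without line 14 (-1.40 on the log2 scale), 0.061 without line 319 (-1.17) and 0.076 with the HM1-derived lines alone (-1.17). Without line 14, and likewise without line 319, 1 of the 9 genes was still called. In the controls all 9 genes were called whichever of the 6 lines or replicates was left out. Every line fell between these days: day 2 was 0.152, 0.132 and 0.0894 times day 0 in HM1 replicate 1, HM1 replicate 2 and line 1A4, and 0.394, 0.360 and 0.365 times in lines 14, 19 and 319. The 3 knockout lines thus kept a larger part of their day 0 level than any control sample.

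The difference between genotypes at day 2 did not pass the test after adjustment. The shared level was higher in the knockout by 1.35 ± 0.42 on the log2 scale (unadjusted p 0.0053, adjusted p 0.10). Among the 9 genes the log2 fold change ran from 1.16 (Ugt1a6a) to 1.47 (Ugt1a1), with adjusted p from 0.075 to 0.15, and none was called, against 1.6% of all genes tested. At an unadjusted p below 0.05 there were 3735 genes at this day, the 9 of the cluster among them. DESeq2 called 3 of the 9. Without line 19, 2 of the 9 were called by edgeR, Ugt1a6b (adjusted p 0.042) and Ugt1a7c (adjusted p 0.030). Groups did not overlap in 7 of the 9 genes, against 21.7% of all genes tested, but these 7 hold largely the same shared reads and count as 1 measurement. Ugt1a6a and Ugt1a6b overlapped, at 0.270 and 0.247 CPM in HM1 replicate 1 and 0.226 CPM each in line 19. Summed over lines, the shared exons held 40 reads in the knockout and 22 in the controls, a depth-scaled ratio of 2.80 (exact 95% counting interval 1.62 to 4.94).

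Whether the genotype difference itself changed from day 0 to day 2 was tested with an interaction term. The shared level gave 1.68 ± 0.54 on the log2 scale (unadjusted p 0.0065, adjusted p 0.49), and none of the 9 genes was called, against 0.0219% of all genes (4 genes by edgeR, 76 by DESeq2, and 1309 at an unadjusted p below 0.05).

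**Figure D2:**
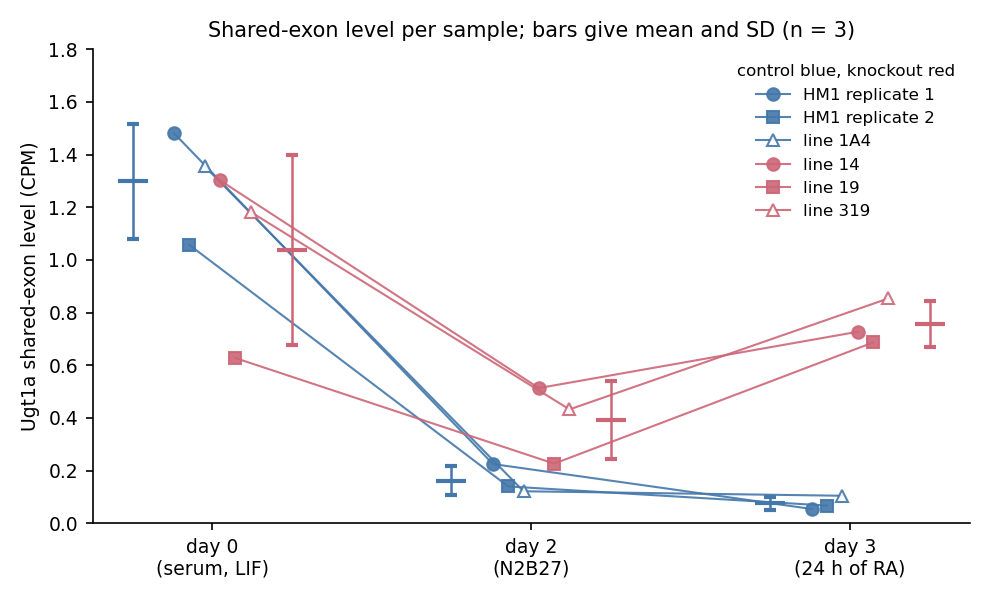
Ugt1a shared-exon level in CPM (y axis) at days 0, 2 and 3 (x axis), controls blue and knockout lines red, 1 point per sample joined by line, with mean and SD (n = 3) beside them. Controls end at 0.0538 to 0.104 CPM and knockout lines at 0.686 to 0.854 CPM, while at day 0 the groups overlap.

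At day 3, after RA, the shared exons held 2, 2 and 4 reads in HM1 replicate 1, HM1 replicate 2 and line 1A4. Lines 14, 19 and 319 held 44, 20 and 33 reads. In CPM the controls were at 0.0538, 0.0668 and 0.104 and the knockout lines at 0.727, 0.686 and 0.854. The lowest knockout sample was over the highest control sample, and the 3 knockout lines lay close together. As a description, the fitted log2 fold change was 3.27 ± 0.45 for the shared level and 3.09 (Ugt1a7c) to 3.39 (Ugt1a9) over the 9 genes. These values chose the members, so the 9 of 9 genes past the threshold (5.19% of all genes tested) and the 9 of 9 without overlap (35.2% of all) carry no information of their own. Without HM1 replicate 2 none of the 9 passed the threshold, with the shared level within 3.13 to 3.51 over all single left-out replicates.

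Each knockout line was set against the controls of its own background, again as a description. Line 14 had 12.2 times the shared level of HM1 at day 3 (exact 95% counting interval 4.44 to 46.7) and line 19 had 11.5 times (3.86 to 46.3), each against 4 reads in the HM1 replicates together. Line 319 had 8.20 times the level of line 1A4 (2.92 to 31.9). At day 0 the same ratios were 1.03, 0.498 and 0.872, and at day 2 they were 2.81, 1.24 and 3.57. Line 19 was lowest of the 3 at days 0 and 2 and level with the others at day 3. Its interval at day 2, 0.231 to 4.32, rests on 3 reads and allows a difference in either direction.

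Ordered by mean and SD (n = 3), the shared level was 1.30 ± 0.22 CPM in day 0 controls, 1.04 ± 0.36 in day 0 knockout, 0.756 ± 0.087 in day 3 knockout, 0.390 ± 0.15 in day 2 knockout, 0.162 ± 0.055 in day 2 controls and 0.0749 ± 0.026 in day 3 controls. Day 0 knockout overlapped with day 0 controls and with day 3 knockout, and no other neighbours in this order overlapped. Between day 2 knockout and day 2 controls the gap was 0.225 to 0.226 CPM, less than the SD of either group. In bulk RNA, fewer cells with the transcript and less transcript per cell cannot be told apart.

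First exons showed which genes of the cluster were read. Ugt1a7c, which is known with its close relatives for conjugating phenols, had 79 of the 190 first-exon reads, or 86.3 reads per kb of first exon over the 18 samples. Ugt1a6a, an enzyme for small planar phenols, had 64 reads (67.1 per kb), and its near copy Ugt1a6b had 28 (29.9 per kb). Ugt1a9 had 7 reads, Ugt1a8 had 6, Ugt1a1 (the bilirubin-conjugating enzyme) had 5 and Ugt1a10 had 1. Ugt1a2 and Ugt1a5 had none in any sample. Their counts were the lowest in every sample, so this 0 is the baseline of the measure and not an observed absence. For the other genes a count of 0 was taken to allow up to 3 reads per sample.

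**Figure D3:**
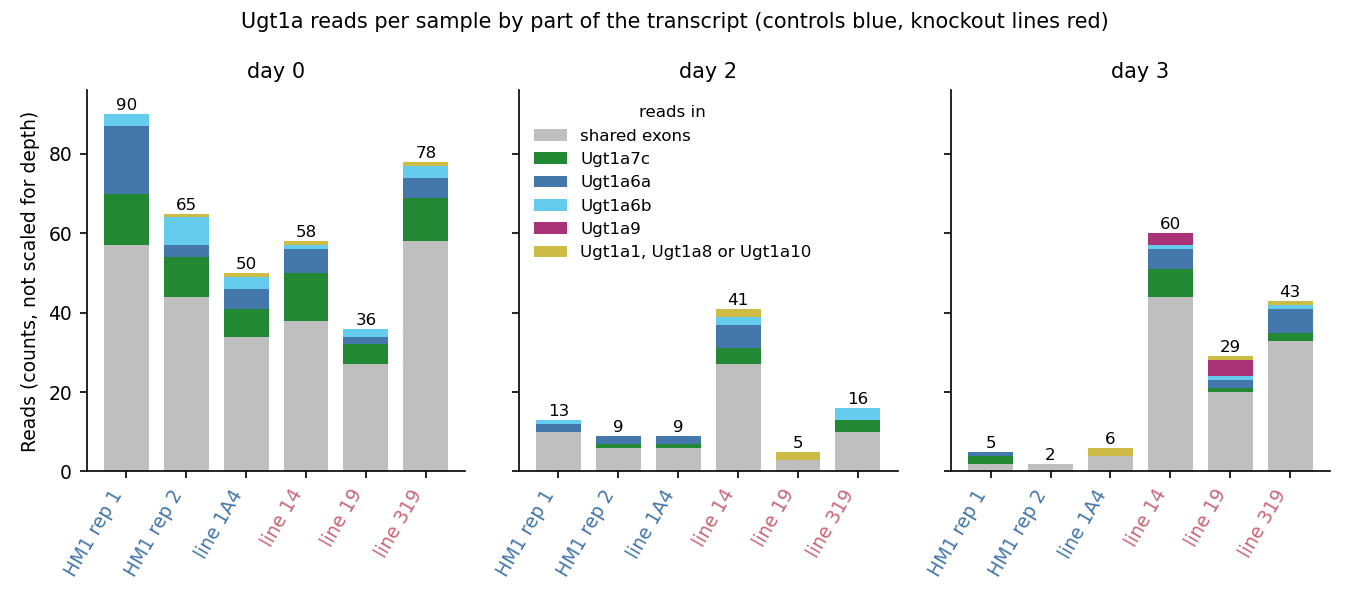
Reads per sample (y axis, counts not scaled for depth) at each day, split into shared-exon reads (grey) and first-exon reads by gene (colours), with the total above each bar and sample names in blue for controls and red for knockout lines. Totals are 36 to 90 at day 0, and at day 3 they are 2 to 6 in controls and 29 to 60 in knockout lines.

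Ugt1a7c first-exon reads at day 0 numbered 13, 10 and 7 in the controls and 12, 5 and 11 in lines 14, 19 and 319. At day 2 they numbered 0, 1 and 1 in the controls and 4, 0 and 3 in the knockout lines, and at day 3 they numbered 2, 0 and 0 against 7, 1 and 2. Of the 9 first exons, 1 (Ugt1a7c) had enough reads to enter the test. In the controls its first-exon reads fell from day 0 to day 2 (30 to 2 reads, a depth-scaled ratio of 0.0512, exact 95% counting interval 0.00592 to 0.202, adjusted p 0.0024 by edgeR). In the knockout they went from 28 to 7 reads (ratio 0.341, interval 0.126 to 0.798), and this change was not called (adjusted p 0.11). In the controls the fall was thus present in first-exon reads as well as in the shared exons. However, this first exon passed the filter through its day 0 reads, which favours a fall from day 0. Its fall is therefore no independent support for that of the shared level.

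Between genotypes, Ugt1a7c first-exon reads gave an adjusted p of 0.98 at day 0 (28 reads in the knockout, 30 in controls, ratio 0.810, interval 0.466 to 1.40). At day 2 the adjusted p was 0.26 (7 reads against 2, ratio 5.39, interval 1.03 to 53.2). The interaction from day 0 to day 2 had an adjusted p of 0.73. No genotype difference was detectable in this first exon at this depth. At day 3 it had 10 reads in the knockout and 2 in the controls (ratio 4.11, interval 0.876 to 38.6).

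Ugt1a6a first-exon reads at day 0 numbered 17, 3 and 5 in the controls and 6, 2 and 5 in the knockout lines. The 17 reads of HM1 replicate 1 stood far above the 3 of HM1 replicate 2. At day 2 they numbered 2, 2 and 2 in the controls and 6, 0 and 0 in lines 14, 19 and 319, and at day 3 they numbered 1, 0 and 0 against 5, 2 and 6. All 3 knockout lines had Ugt1a6a first-exon reads at day 3, and only HM1 replicate 1 among the controls did. Summed, the day 3 reads were 13 against 1 (ratio 10.7, interval 1.61 to 454).

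Ugt1a6b first-exon reads numbered 3, 7 and 3 in the controls and 1, 2 and 3 in the knockout lines at day 0. By day 2 they were 1, 0 and 0 against 2, 0 and 3, and at day 3 they were absent from the controls and 1 in each knockout line. Ugt1a1 had at most 2 reads in a sample (line 19, day 2) and Ugt1a8 likewise at most 2 (line 14, day 2). The only Ugt1a10 read was in line 1A4 at day 3.

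Ugt1a9, another enzyme for phenols, was read in 2 of the 18 samples only. Its first exon had 3 reads in line 14 and 4 in line 19, both at day 3, and 0 in line 319 at day 3, where a count of 0 allows up to 0.0869 CPM of gene counts. No control sample and no day 0 or day 2 sample had a Ugt1a9 first-exon read. The pattern was singled out after its values were seen and was not tested, and both samples are HM1-derived knockout lines.

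Ugt1a7c and Ugt1a6a together held 55 of 70 first-exon reads in day 0 controls, 41 of 49 in the day 0 knockout, 13 of 22 in the day 2 knockout and 23 of 35 in the day 3 knockout. In line 19 at day 3 the first exon with the most reads was that of Ugt1a9 (4 of 9 reads, against 2 of Ugt1a6a and 1 of Ugt1a7c), and at day 2 line 19 had only 2 reads, both of Ugt1a1. Controls had 9 first-exon reads at day 2 and 5 at day 3, too few to give a mix. All first exons together gave knockout to control ratios of 0.607 at day 0 (interval 0.413 to 0.887), 3.76 at day 2 (1.67 to 9.28) and 5.76 at day 3 (2.25 to 18.8). The day 0 ratio differed by line, at 1.02 for line 14 and 0.310 for line 19 against HM1 and 0.639 for line 319 against 1A4, and these intervals leave out differences between cultures. For the shared exons the same ratios were 0.790 (0.614 to 1.02), 2.80 and 9.97 (4.87 to 23.8). The share of reads in first exons lay between 26.5% (day 3 knockout, interval 19.2% to 34.9%) and 38.5% (day 3 controls, interval 13.9% to 68.4%), with all 6 group intervals overlapping.

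The 6 transcripts that hold only part of the shared exons added little. Ugt1a10-202, Ugt1a7c-204 and Ugt1a6a-204 end with exon 4, and their lowest count in each sample, summed, gave 182 reads in exons 2 to 4 over the 18 samples, or 414 per kb, against 324 per kb over all shared exons. Ugt1a10-203 ends within exon 4 and had 145 counts, and Ugt1a7c-203, annotated for nonsense-mediated decay, had 301. Ugt1a6a-203 retains introns among the shared exons, and 8 reads were assigned to them. Ugt1a6a-201 and Ugt1a6a-202, which start at different exons, had equal counts in sum (489 each), as did Ugt1a6b-201 and Ugt1a6b-202 (453 each), so their start sites could not be told apart. Ugt1a7c-202 joins a Ugt1a6b leader to the Ugt1a6a coding exon, and it had 1 count more than Ugt1a6a-202 (line 14, day 0), from that leader or from its longer 3' end.

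Other annotated genes inside the cluster had few counts apart from Dnajb3. Gm20528, antisense to members of the cluster, had 1 count in 18 samples, and of 8 predicted genes within the cluster only Gm15374 had a count (1). Dnajb3, a cochaperone gene on the minus strand between the first exons, had 461 counts. It rose from day 0 to day 2 in the controls by 1.48 ± 0.49 on the log2 scale (adjusted p 0.028 by edgeR), the opposite direction to the Ugt1a shared level, and its genotype difference at day 3 was 0.27 ± 0.44 (adjusted p 0.78).

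Promoter sequence was available from RefSeq (GRCm38.p6) for 8 of the 9 genes, and Ugt1a6b was not matched. Those of Ugt1a7c and Ugt1a6a are shown because their first exons held most of the first-exon reads. Each line gives the 250 bases before the annotated start, plus strand, 5′ to 3′, with the motif that was found in capitals.

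Ugt1a7c, chr1:88094751-88095000: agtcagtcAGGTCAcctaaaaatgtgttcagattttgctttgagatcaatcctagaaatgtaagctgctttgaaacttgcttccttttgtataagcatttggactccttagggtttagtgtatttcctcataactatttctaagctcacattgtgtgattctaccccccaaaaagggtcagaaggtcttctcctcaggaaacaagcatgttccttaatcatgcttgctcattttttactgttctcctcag
Ugt1a6a, chr1:88134559-88134808: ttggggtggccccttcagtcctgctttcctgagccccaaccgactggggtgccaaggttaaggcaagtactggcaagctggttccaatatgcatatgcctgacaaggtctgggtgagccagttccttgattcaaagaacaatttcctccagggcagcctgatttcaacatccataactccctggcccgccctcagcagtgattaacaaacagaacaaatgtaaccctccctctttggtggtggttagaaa

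In these windows both strands were searched for GCGTG (the core bound by the aryl hydrocarbon receptor AhR with Arnt), TGACNNNGC (the core of the antioxidant response element bound by Nrf2), AGGTCA (a nuclear receptor motif) and TATAAA. The motif AGGTCA was found in Ugt1a7c, 242 bases before the start, and in Ugt1a9, and 14.0% of 32536 distinct promoter windows hold it. GCGTG was found in Ugt1a8 and Ugt1a5, and 28.3% of all windows hold it. TGACNNNGC (10.2% of all windows) and TATAAA (12.3%) were in none of the 8. These are matches of letters in a short window and say nothing of binding.

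Genes of the surrounding chromosome were followed to see how far the pattern reached. Of 10 neighbours, Mroh2a, Trpm8 and Spp2 were too low to test. None of the other 7 was called between genotypes at day 0 or day 2. At day 3 only Arl4c, a small GTPase gene, was called, and it was lower in the knockout by 1.22 ± 0.30 on the log2 scale (-1.22, adjusted p 0.029). Hjurp, the nearest tested neighbour downstream, which loads the centromeric histone, was at -0.32 ± 0.18 (adjusted p 0.32). Usp40, a deubiquitinase gene upstream, was at 0.40 ± 0.22 (adjusted p 0.32), and Sag, the arrestin gene of the retina, at 1.97 ± 0.69 (adjusted p 0.11). From day 0 to day 2 in the controls, Dgkd (0.67), Dnajb3 and Arl4c (2.43) rose and Atg16l1 (-0.83) fell.

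**Figure D4:**
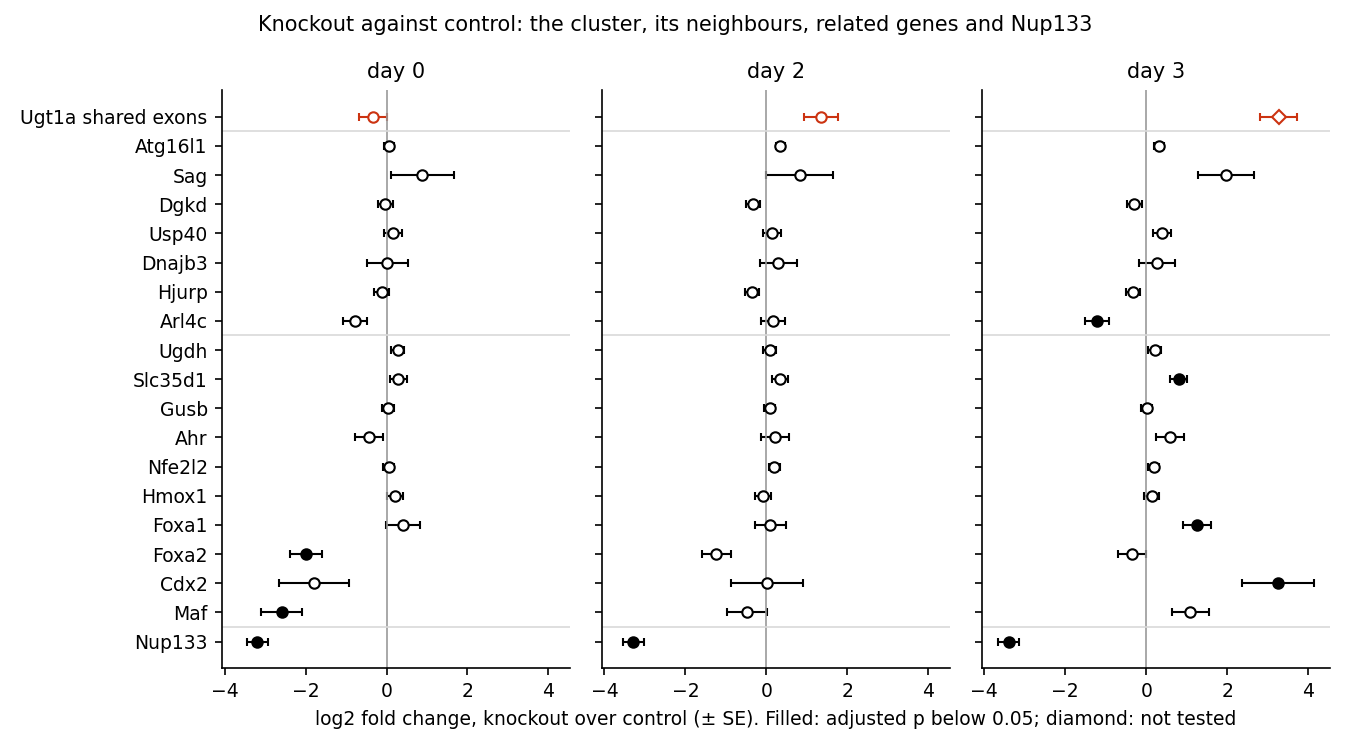
Log2 fold change of knockout over control (x axis, bars give SE) at each day for the Ugt1a shared exons, 7 neighbours, related genes and Nup133, filled where the adjusted p is below 0.05. The Ugt1a shared level moves from -0.34 to 1.35 to 3.27 (diamond, not tested), and among the neighbours only Arl4c is filled, at day 3.

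Genes that work with the cluster were taken from 7 lists, which with the neighbours held 69 tested genes. Between genotypes 2 of them were called at day 0, 1 at day 2 and 7 at day 3, and none had a called interaction. These counts are 2.90%, 1.45% and 10.1% of the 69, against 0.854%, 1.6% and 5.19% of all genes tested. Of 7 genes for UDP-glucuronic acid supply and removal, none was called at day 0 or day 2. Slc35d1, which carries UDP-glucuronic acid into the endoplasmic reticulum, was higher in the knockout at day 3 by 0.80 ± 0.21 (adjusted p 0.037). Ugdh, which makes UDP-glucuronic acid, was at 0.21 ± 0.16 (adjusted p 0.47), and Gusb, which removes glucuronic acid again, at 0.01 ± 0.14 (adjusted p 0.98). The median log2 fold change of the list at day 3 was 0.14, against 0.02 over all genes tested.

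Among 16 other UDP-glycosyltransferase genes, all 12 of the Ugt2 and Ugt3 families were too low to test, and none of the other 4 was called between genotypes. Regulators known for Ugt1a genes were 20, with 17 tested. At day 0 Maf (-2.59 ± 0.51, adjusted p 0.019) and Foxa2 (-1.99 ± 0.39, adjusted p 0.020) were lower in the knockout, where the Ugt1a shared level was not called. At day 3 Foxa1, a forkhead factor of endoderm and floor plate, was higher by 1.26 ± 0.34 (adjusted p 0.045). Cdx2, the caudal factor of intestine and posterior embryo, was higher by 3.26 ± 0.89 (adjusted p 0.045), but it was at 19.7 CPM in line 319 and at 0.515 to 0.744 CPM in lines 14 and 19, within the range of the controls (0.242 to 0.911). Without line 319 the Cdx2 difference was 0.68 (adjusted p 0.39). The day 3 Ugt1a shared level was 0.727, 0.686 and 0.854 CPM in lines 14, 19 and 319, and a part of Cdx2 or the other regulators in it was not tested.

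Ahr, which encodes a receptor for foreign compounds and lies on chromosome 12, was at 15.7 ± 1.0 CPM in day 3 controls and 23.5 ± 0.44 in the day 3 knockout (0.58 ± 0.35 on the log2 scale, adjusted p 0.36). None of the 6 tested AhR target genes was called at any day, with a median of 0.42 at day 3. At that day Cyp1b1 (1.28 ± 0.44, adjusted p 0.098) and Cyp1a1 (0.63 ± 0.42, adjusted p 0.41) were higher in every knockout line than in every control. Aldh3a1 was lower in every knockout line (-1.21 ± 0.52, adjusted p 0.19). Of all genes tested, 35.2% had no overlap at day 3. Nfe2l2, which encodes Nrf2, was at 0.18 ± 0.14 (adjusted p 0.50), and none of its 10 target genes was called, with a median of 0.30. Hmox1, which starts haem breakdown towards bilirubin, was at 0.13 ± 0.19 (adjusted p 0.75), and none of 6 tested genes of haem and bilirubin handling was called. Of 15 other conjugating enzymes tested, Gstm6 (-1.18), Gstt2 (-1.02) and the acetyltransferase Nat2 (-1.14) were lower in the knockout at day 3 and Nat2 (-1.23) at day 2. Where an enzyme of this group was called, it was thus lower, the opposite sign to the Ugt1a level.

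These calls move with the samples included. Without HM1 replicate 1, or without HM1 replicate 2, none of the 69 genes was called at any day. Without line 1A4 the counts at days 0, 2 and 3 were 1, 0 and 1, and without line 14 they were 0, 4 and 2. Without line 19 they were 1, 0 and 8, and without line 319 they were 4, 5 and 12.

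Of the markers of other cell types, 8 feeder fibroblast genes summed to 104 to 196 CPM in day 0 controls and 73.9 to 132 CPM in the day 0 knockout. At day 2 they summed to 113 to 170 and 72.6 to 97.8 CPM, and at day 3 to 168 to 256 and 107 to 172 CPM. None of the 8 was at 0 in all samples of a group, and Postn and Acta2 were called lower in the knockout at days 2 and 3. From day 0 to day 2 the sum went from 196 to 113 CPM in HM1 replicate 1, from 191 to 170 CPM in HM1 replicate 2 and from 104 to 126 CPM in line 1A4. Within it Col1a1 and Col1a2 were called lower at day 2 than at day 0 in the controls, as the Ugt1a genes were, while Thy1 was called higher (3.11 ± 0.30, adjusted p 4.0e-06). The part of these markers in the fall of the Ugt1a level was not tested. At day 3 the neural progenitor sum was 281 to 330 CPM in controls and 260 to 885 CPM in the knockout, with only Pax6 called. Pax6 was at 179 and 322 CPM in lines 14 and 19, and at 36.4 CPM in line 319, within the control range of 23.5 to 42.5 CPM. Sox3 was lower in the knockout without being called, at 25.5 to 36.7 CPM against 41.5 to 46.1 CPM. Endoderm genes (6) summed to 282 to 291 CPM in day 3 controls and 279 to 330 CPM in the day 3 knockout, most of it Lamb1. Among them only Gata4, a transcription factor of endoderm and heart, was called at day 3. It was higher in the knockout (1.36 ± 0.31 on the log2 scale, adjusted p 0.023), at 3.26 to 6.01 CPM in the controls and 8.44 to 14.5 CPM in the knockout. Dab2 of the same list went the other way without being called (-0.55 ± 0.21, adjusted p 0.14), with every knockout line below every control sample. Foxa2 (-0.35 ± 0.34) and Gata6 (-0.12 ± 0.36) were also lower without being called. Sox17 was higher in each knockout line than in the controls of its own background, without being called. It was at 2.26, 3.04 and 9.94 CPM in HM1 replicate 1, HM1 replicate 2 and line 1A4. In lines 14, 19 and 319 it was at 5.07, 6.14 and 10.5 CPM. The median log2 fold change of the list at day 3 was -0.02. Hepatocyte and intestine genes (8, of which 3 tested) summed to 4.06 to 6.82 CPM in day 3 controls and 4.96 to 25.9 CPM in the knockout, the highest in line 319 with its Cdx2. Of these 8, 2 were at 0 in all controls and 2 in all knockout lines at day 3. Alb, the main hepatocyte marker, was at 0 in all 3 day 3 controls and had 2 reads in each day 3 knockout line (0.0330 to 0.0686 CPM). Afp of the same list had 3, 1 and 4 reads in the day 3 controls and 21, 36 and 3 in lines 14, 19 and 319. Apoa4 went the other way, with 5, 6 and 4 reads in the day 3 controls and 0 in each knockout line. Apoa1 was also lower in the knockout without being called (-1.08 ± 0.76, adjusted p 0.44). Alb, Afp and Apoa4 were too low to test. The part of these markers in the day 3 Ugt1a level was not tested.

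Among the genes compared, those whose levels followed the Ugt1a shared level most closely were Fgf7, Ddr2, Nrn1, Prl2c3, Serpina3n and Thbd. They had the highest Pearson r of log2(CPM + 0.5) over the 18 samples, from 0.93 (Fgf7) to 0.91 (Thbd). Compared were 13042 tested genes whose mean was 1 CPM or more. Members, genes overlapping their exons and genes with clone, predicted or mitochondrial symbols were left out. The 18 samples share depth, line and day, so r describes the pattern and is not tested. With a pseudocount of 0.1 the 6 ranked between 1 and 10, and by Spearman's rho between 1 and 45.

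Fgf7, a growth factor for epithelia, was at 7.64 ± 3.1 CPM in day 0 controls and 5.94 ± 2.1 in the day 0 knockout. By day 3 it was at 0.392 ± 0.049 in the controls and 1.69 ± 0.23 in the knockout. Nrn1, a neuritin gene, was at 6.13 ± 1.7 and 6.58 ± 2.4 CPM at day 0 and at 0.387 ± 0.026 and 1.70 ± 0.031 CPM at day 3. Both overlapped at day 0 and had a day 3 gap with no overlap, like the Ugt1a level. Their choice by likeness over all 18 samples favours this, and 35.2% of all genes tested had no overlap at day 3.

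Thbd (thrombomodulin) went from 1.36 to 5.19 CPM at day 2 to 5.46 to 7.50 CPM at day 3 in the 3 knockout lines, and from 1.07 to 1.84 CPM to 1.59 to 2.87 CPM in the controls, higher at day 3 in each of the 6. Ddr2 (a collagen receptor) went from 2.11 to 4.71 CPM to 5.29 to 5.59 CPM in the knockout lines, and in the controls it was higher at day 3 only in HM1 replicate 2 (2.65 and 3.44 CPM). Serpina3n, a serine protease inhibitor, was at 0.243 ± 0.043 CPM in day 3 controls and 1.15 ± 0.22 in the knockout. Prl2c3, a prolactin family gene with near-identical copies that could take its reads, was at 0 in the 3 day 3 controls and at 0.377 to 0.905 CPM in the knockout lines.

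**Figure D5:**
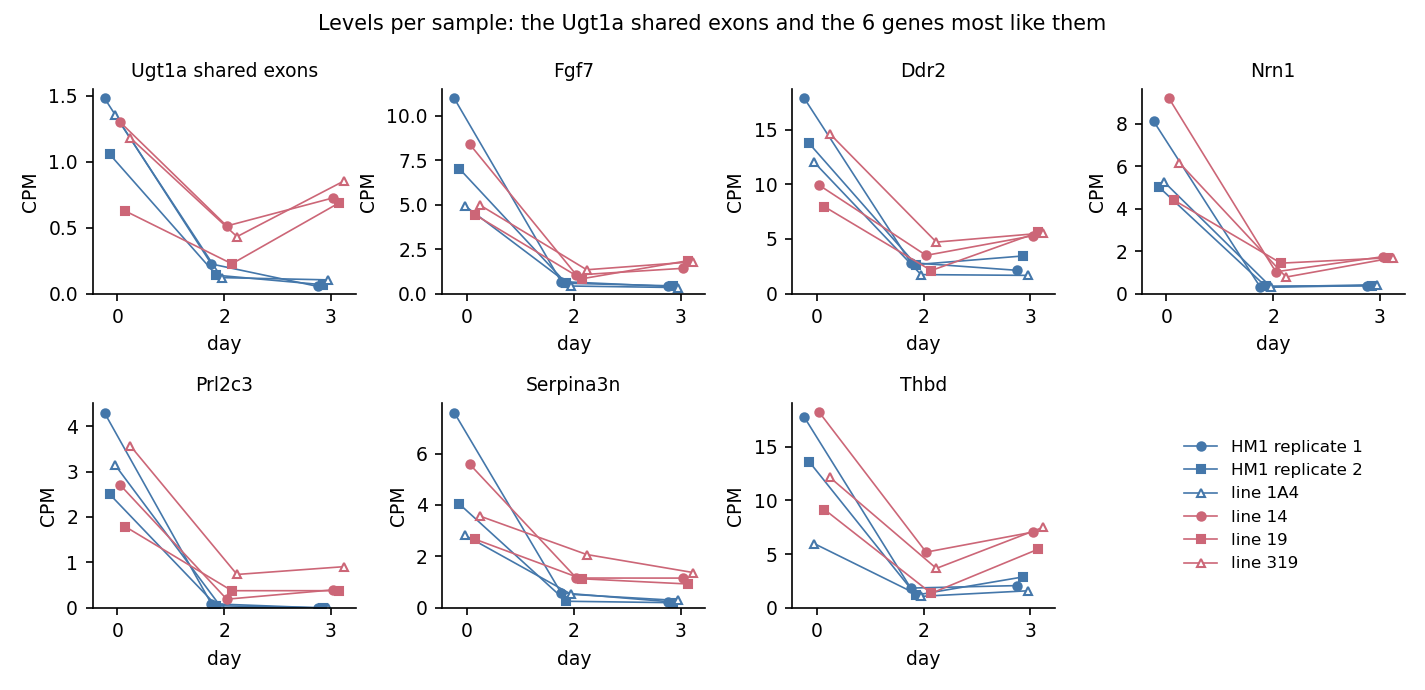
CPM per sample (y axes start at 0) by day for the Ugt1a shared exons and the 6 genes chosen for the most alike pattern, controls blue and knockout lines red. All 7 fall from day 0 to day 2 in each line, and at day 3 the knockout lines lie above the controls in each panel.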

How the data were processed

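Poly(A) RNA of 18 samples was sequenced as 72 stranded libraries, 4 technical libraries per sample. The authors deposited read counts per Ensembl transcript. Per the submitters' processing notes, bcl2fastq 2.17.1.14, STAR 2.4.0k, SAMtools, HTSeq and mm10 were used. The annotation release, strand setting and treatment of multi-mapping reads are not given in the sources used here. In the deposited counts a read is counted for each transcript it overlaps.

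Technical libraries were summed (chi-square per degree of freedom 1.01 to 1.03). Transcripts were matched to GENCODE M21 (108214 of 110379; unmatched rows held 1.44% to 2.46% of counts), and each gene was represented by 1 transcript. Genes passing edgeR's filter (18273) were fitted with edgeR 4.0.16 (limma 3.58.1, R 4.3.3): TMM, all 6 groups, a term for the background of the line, quasi-likelihood tests and Benjamini-Hochberg adjustment, called below 0.05. The scripts were tested on simulated data. DESeq2 1.42.0 was an alternative, with those in the closing section. Counting intervals are exact and, like the limit of 3 reads for a count of 0, cover counting error only.

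Members and lists were chosen with earlier results of these data known. Named genes were the members, Nup133, the neighbours, the 6 most alike, called genes of each list (at most 4 per day, by size of change), and always Ahr, Nfe2l2, Ugdh, Gusb and Hmox1. Same-line samples over days are paired by line: 16 of 18 correlations of their deviations were over 0.1 (-0.094 to 0.398).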

Additional observations from a re-analysis of the deposited data

Results flagged for a closer look

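From day 2 to day 3 the Ugt1a shared-exon level moved in opposite directions in the 2 genotypes, and this difference was not tested because day 3 chose the cluster. The day 3 level was 1.42, 3.04 and 1.98 times the day 2 level in lines 14, 19 and 319. In HM1 replicate 1, HM1 replicate 2 and line 1A4 it was 0.240, 0.479 and 0.859 times. Every knockout line thus moved up and every control sample down, with 2 to 10 shared-exon reads behind each control value.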

How the results depend on the processing

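With 615 cluster reads in all, depth limits every statement on single first exons. The fall of the shared level from day 0 to day 2 in controls was called under all settings that gave a value. In the knockout it was not called with the HM1-derived lines alone (-1.17, adjusted p 0.076, 0 members called), without line 14 (-1.40) or without line 319 (-1.17), and leaving out each replicate in turn gave 1 to 9 members called. With a replicate block by number the shared level gave -0.36 (day 0) and 1.29 (day 2, adjusted p 0.10), and with the replicate block by line series it gave -2.99 (controls, day 2 against day 0), -1.35 (knockout, adjusted p 0.0078) and 1.64 (interaction, adjusted p 0.43), neither of which changed a call on it, and in the latter 1 gene had a called interaction. At day 2, members called were 3 with DESeq2, 2 without line 19 at day 2 only, and 0 to 2 leaving out a replicate. At day 3 the shared level was 3.49 with the HM1-derived lines alone and 3.13 to 3.51 leaving out a replicate, with 0 to 9 members past the threshold. The Ugt1a7c first-exon difference at day 0 reversed to 0.18 (adjusted p 0.93) without line 19. The causes of these changes were not tested.

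Counts over all genes at days 0, 2 and 3 moved to 560, 1401 and 2063 with DESeq2 (76 interactions), and to 480, 859 and 2245 with every transcript a row (17 interactions, and 22380 and 23289 transcripts between day 0 and day 2 in controls and knockout). Fitted by day alone they were 249, 0 and 2546, and Nup133 at day 2 was then -3.27 (adjusted p 0.19). The HM1-derived lines alone gave 313 at day 0 and 0 interactions. Without line 19 at day 2 only there were 378 at day 0, 2993 at day 3 and 7 interactions. Without the background term there were 185 at day 2, 516 at day 3 and 2 interactions, and without the filter 7 interactions. Leaving out a replicate gave 18 to 406, 22 to 1373 and 17 to 2020 genes, 2833 to 8900 and 3814 to 7712 between day 0 and day 2 in controls and knockout, and 0 to 10 interactions.

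Related genes called were 4, 9 and 11 with DESeq2 at days 0, 2 and 3, 4 at day 3 with every transcript a row, 4 at day 0 in the HM1-derived lines, 0 at day 2 and 13 at day 3 fitted by day alone, 13 at day 3 without line 19 at day 2 only, 2 at day 2 with median-of-ratios scaling, 0 at day 2 and 1 at day 3 without the background term, and 4 at day 3 with the replicate block by number. Leaving out a replicate gave 0 to 4, 0 to 5 and 0 to 12. Same-numbered samples across genotypes share only a number (5 of 9 correlations over 0.1). The shared level had no day 2 value when fitted by day alone, and the Ugt1a7c first exon none without HM1 replicate 1 or without line 14.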
